A study of Sus scrofa with 10 samples.

Results

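Genes that make, bind, sense and degrade retinoids were followed in the pig ovary, in RNA-seq values of 10 gilts. Members were chosen by name, as the protein-coding locus of the deposited table whose name equals a listed symbol or Ensembl identifier, and the locus with the largest summed count was to be taken if several did. In all, 9 members were found, of 19972 protein-coding loci, and each name was carried by 1 protein-coding locus. They were ALDH1A1, ALDH1A2, ALDH1A3, RBP4, CRABP1, CRABP2, CYP26B1, RARB and ENSSSCG00000016093. ENSSSCG00000016093 was selected on its change between the same 2 groups of pigs, so its values are a description and its difference between the groups was not tested.

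Each library came from the ovary of 1 gilt, and the gilts shared a birth date, a genetic background and a diet. All of them were fed altrenogest, a progestin that holds back oestrus, at 20 mg per day for 18 days from an age of 210 days, and then spent 2 days without it. The rpFSH treatment group (5 gilts, written fpFSH in the labels) then received 1000 IU per pig of recombinant pig follicle-stimulating hormone made in CHO cells, and the control group (5 gilts, labelled untreated) received saline. Ovaries were taken at an age of 234 days once surface follicles were removed. Library preparation is given as poly(A) isolation with NovaSeq sequencing by the labels, but as rRNA removal with HiSeq sequencing by the methods of the study. The extraction protocol in the labels also speaks of an adipose type, although the source of every library is given as ovary. Library totals lay between 65166187 and 75114003 counts for control pigs and between 64873797 and 74656992 for rpFSH pigs. At these depths 3 counts, used here as the floor of detection, equalled 0.0399 to 0.0462 CPM (counts scaled to the library total), which covers counting error only.

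Retinol travels in the blood on RBP4, is oxidised reversibly to retinal inside cells, and retinal is oxidised to retinoic acid by the ALDH1A enzymes. Retinoic acid is held in the cytosol by CRABP1 and CRABP2, acts through nuclear receptors such as RARB, and is broken down by CYP26 enzymes. In the ovary, granulosa cells are known to make retinoic acid, and in the fetal ovary it takes part in the entry of germ cells into meiosis.

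A pair of control pigs stood apart in lists of marker genes, which were chosen with earlier results of these data known. Of 9 markers of oviduct-type ciliated epithelium, 8 were matched to a protein-coding locus (PAX8 was not), and their summed FPKM (fragments scaled to locus length and library size) was 14.2, 54.7, 8.85, 8.28 and 112 in control pigs 1 to 5 and 6.52, 4.39, 3.16, 5.73 and 5.19 in rpFSH pigs 1 to 5. Control pigs 2 and 5 were far above the other 8 pigs, but the lowest control pig (8.28) was also above the highest rpFSH pig (6.52). Taken singly, only MAL2 had all rpFSH pigs below all control pigs (mean FPKM 8.08 in control and 2.08 in rpFSH pigs). Every other matched marker of this list overlapped between the groups. The most abundant of these markers was OVGP1, an oviduct glycoprotein, with a mean FPKM of 10.4 over the 10 pigs, at a locus that also carries WDR77. MCIDAS and SNTN, which belong to multiciliated cells, had a count of 0 in 8 pigs and were counted in control pigs 2 and 5 only, with 50 and 92 counts for MCIDAS and 152 and 247 for SNTN. FOXJ1, a regulator of motile cilia, had an FPKM of 5.82 in control pig 2 and 14.1 in control pig 5, and between 0.0001, the lowest value the table writes, and 0.212 in the other pigs. Markers of the surface mesothelium, of which 6 of 8 were matched (MSLN and KRT19 were not), summed to an FPKM of 5.02, 22.3, 1.17, 2.32 and 53.0 in the control pigs and 3.45, 4.19, 3.67, 4.06 and 3.82 in the rpFSH pigs. The same control pigs, 2 and 5, were the highest, KRT8 was the most abundant mesothelial marker with a mean FPKM of 4.78, and LRRN4 was near 0, with at most 9 counts.

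The tissue label was checked with markers of ovarian cells. Summed FPKM over the 10 pigs ran from 4.83 to 93.0 for granulosa markers (5 of 7 matched, without FOXL2 and HSD17B1), led by INHA, from 12.1 to 234 for 3 theca markers, led by INSL3, and from 4.43 to 14.3 for 5 oocyte markers, led by GDF9. Luteal markers, led by CYP11A1, summed to 2874 in control pig 2, 1621 in rpFSH pig 1 and 450 in rpFSH pig 4, and to between 14.5 and 62.3 in the other pigs. Stromal markers, led by COL1A1, ran from 195 to 1320, and endothelial ones, led by VWF, from 33.7 to 94.6. Immune markers, led by CD68, ran from 31.4 to 48.9, but the locus of CD68 also carries EIF4A1, a translation factor used by all cells, and the other 4 immune markers summed to between 4.42 and 17.0. Erythroid markers, led by HBB, ran from 10.6 to 117, and smooth muscle ones, led by ACTA2, from 49.7 to 1210, the last in control pig 5.

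The question put to each member was whether its level differed between the groups beyond the spread between pigs. None of the 8 members with a test passed an adjusted p of 0.05 in edgeR's quasi-likelihood test on the counts (two-sided, Benjamini-Hochberg adjustment over all loci tested). All 9 members were among the 15170 protein-coding loci whose mean FPKM reached 0.1, but ENSSSCG00000016093, with a mean FPKM of 0.126, passed only through the control group. An adjusted p under 0.05 was reached by 0 of the 8 members and by 0 of 15170 loci (0%) in edgeR, where 0 of the 8 and 717 of the loci had an unadjusted P under 0.05. DESeq2 gave an adjusted p under 0.05 to 86 loci and limma, on log2 (FPKM + 1), to 0 loci, with 0 of the 8 members in either. By the limits taken from the study, an unadjusted P under 0.05 and a log2 change above 1 or below -1, edgeR called 0 of the 8 members and 473 loci (3.12%), of which 81 were higher and 392 lower in the rpFSH treatment group. The lower loci (2.58%) included all 8 oviduct-type markers, with a median log2 change of -4.60, and 2 of the 5 mesothelial markers tested. None of these markers passed the adjusted threshold. Most oviduct-type ones (FOXJ1, MCIDAS, RSPH1, TEKT1 and SNTN), and the mesothelial KRT18, passed the filter only through the control group. The count and the median of these markers thus follow in part from the filter and are a description. OVGP1, DNAH5 and MAL2, whose rpFSH means were above 0.1, had log2 changes of -2.81, -3.50 and -1.90. With control pigs 2 and 5 both left out, an alternative chosen after the data were seen, 290 loci (1.95%) were higher and 117 (0.787%) lower by the same limits, so the balance turned over. The log2 change, rpFSH over control, was below 0 in 6 members and above 0 in 2, with a median of -0.11, against -0.01 (7837 loci below 0 and 7333 above) over all loci tested. This tally turned over too, with 2 members below 0 and 6 above both without control pig 5 (median 0.15) and without control pigs 2 and 5 (median 0.40).

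**Figure D1:**
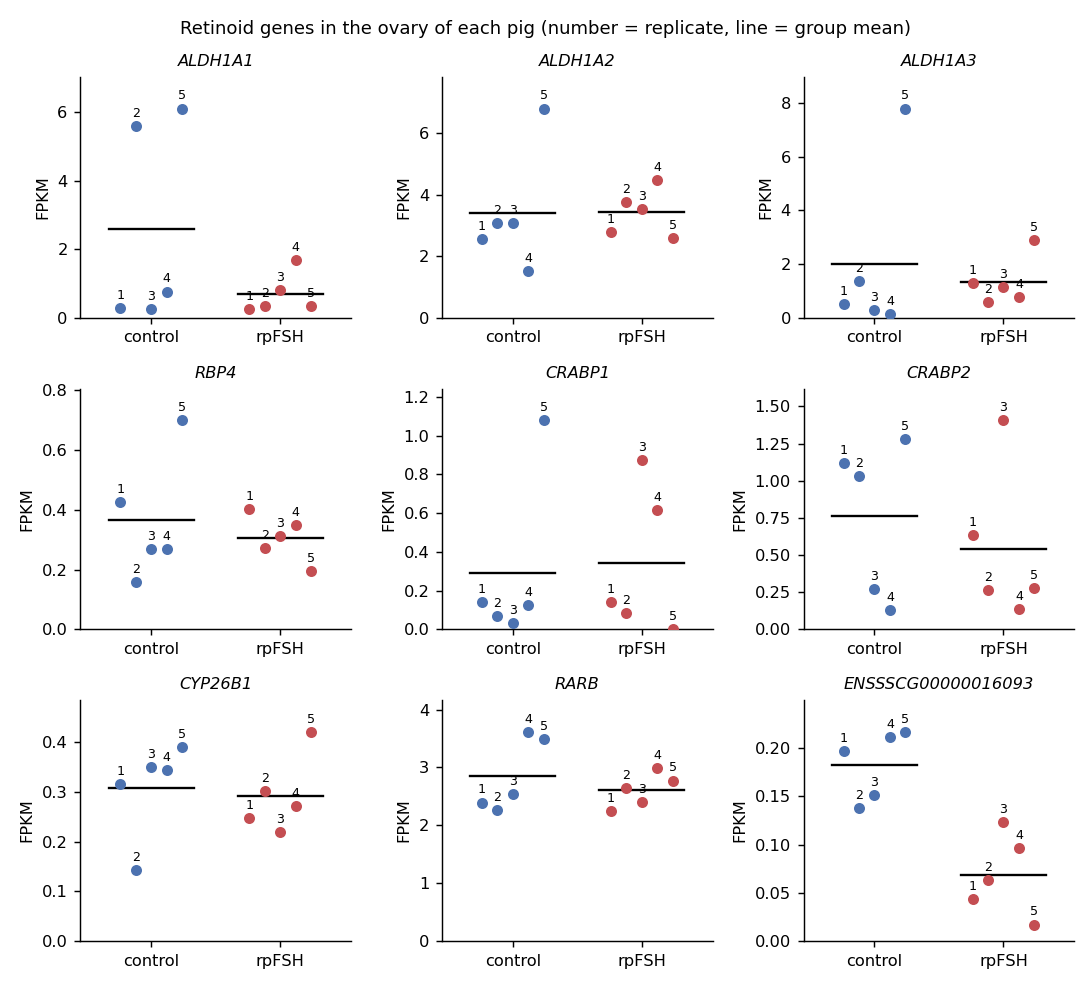
FPKM of the 9 retinoid genes (one panel per gene, vertical axis from 0) in 5 control pigs (blue) and 5 rpFSH pigs (red). Numbers are the replicate numbers of the pigs and lines the group means. ALDH1A1 is high in control pigs 2 and 5, ALDH1A3 in control pig 5, and the groups do not overlap for ENSSSCG00000016093.

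ALDH1A1, ALDH1A2 and ALDH1A3 oxidise retinal to retinoic acid, and their levels were spread widely between pigs of the same group. ALDH1A1 (chromosome 1, 226161373 to 226217339, Sscrofa11.1) had an FPKM of 0.286, 5.59, 0.248, 0.767 and 6.11 in control pigs 1 to 5 and of 0.245, 0.345, 0.820, 1.69 and 0.347 in rpFSH pigs 1 to 5. The groups overlapped, and the control mean was carried by pigs 2 and 5, the pair with high oviduct-type and mesothelial markers. The part of those markers in the ALDH1A1 values was not tested, and in such bulk samples fewer cells of a type and less RNA per cell cannot be told apart. Group means were 2.60 ± 2.98 (control, SD, n = 5) and 0.689 ± 0.601 (rpFSH, SD, n = 5). The log2 change was -1.82 (SE 0.95, 95% interval -3.92 to 0.29, edgeR adjusted p = 1.00), a fold of 0.284 with an interval that also holds 1. On log2 (FPKM + 1), the mean difference was -0.72 (two-sided exact permutation test over the 10 pigs, p = 0.341). With control pigs 2 and 5 both left out, the log2 change was 0.74 (SE 0.69, edgeR adjusted p = 0.856), so the direction rested on these 2 pigs. ALDH1A1 came within the limits of the study in DESeq2 (log2 change -1.84, adjusted p = 0.692), as did 526 loci (3.47%), and in edgeR without control pig 1 (-2.11), control pig 3 (-2.13) or rpFSH pig 4 (-2.45), with adjusted p between 0.692 and 1.00 over all alternatives.

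ALDH1A2 (chromosome 1, 113825321 to 114106133) had an FPKM of 2.56, 3.09, 3.09, 1.54 and 6.81 in the control pigs and of 2.78, 3.76, 3.55, 4.49 and 2.61 in the rpFSH pigs. All rpFSH values lay inside the range of the control group, whose highest pig was again pig 5. The means, 3.42 ± 2.00 and 3.44 ± 0.766 (SD, n = 5 each), were nearly alike, with a log2 change of 0.10 (SE 0.34, 95% interval -0.65 to 0.84, edgeR adjusted p = 1.00). The sign was not stable to the loss of 1 pig, since the log2 change was -0.10 without control pig 4 and -0.014 without rpFSH pig 4. The deposited locus spans 280.813 kb with 10 transcripts, against 104.338 kb for ALDH1A2 in the RefSeq table of the same build. Its ratio of counts to FPKM corresponded to a length of 91.6 kb, longer than that of 99.0% of 10175 loci with over 200 counts in every pig (median 7.46 kb). How reads of neighbouring transcripts inside this span were counted is not stated, and the FPKM of ALDH1A2 is low for its counts.

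ALDH1A3 (chromosome 1, 139450945 to 139492015) had an FPKM of 0.509, 1.36, 0.276, 0.153 and 7.79 in the control pigs and of 1.28, 0.592, 1.14, 0.769 and 2.91 in the rpFSH pigs. Control pig 5 held the highest value and 3 other control pigs the lowest, so the groups overlapped fully. The means were 2.02 ± 3.26 and 1.34 ± 0.922 (SD, n = 5 each), but the medians stood the other way, at 0.509 and 1.14. The log2 change of -0.47 (SE 0.94, 95% interval -2.57 to 1.62, edgeR adjusted p = 1.00) became 1.29 without control pig 5. With control pigs 2 and 5 both left out, the added alternative, it was 2.17 (edgeR adjusted p = 0.687), which falls within the limits of the study but not under the adjusted threshold.

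By FPKM, ALDH1A2 was the highest of the 3 enzymes in 7 pigs, ALDH1A3 in control pig 5 and rpFSH pig 5, and ALDH1A1 in control pig 2. The share of ALDH1A2 in their summed FPKM ran from 30.8% in control pig 2 to 85.5% in control pig 3. Counted without regard to length, as CPM, ALDH1A2 was the highest in 10 of 10 pigs, at 142 to 621 CPM, which reflects its long locus as well as its level. The sum of the 3 enzymes was 10.0 FPKM in control pig 2 and 20.7 in control pig 5, and between 2.46 and 6.95 in the other pigs, both groups included.

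**Figure D2:**
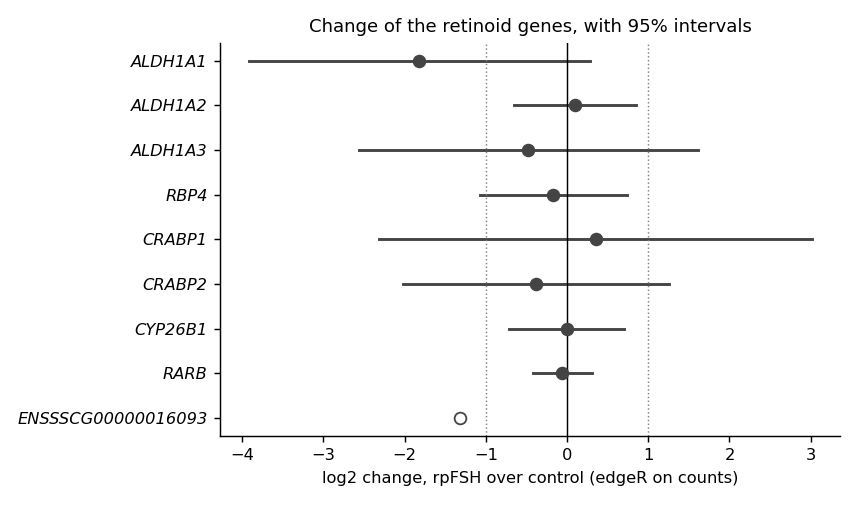
Log2 change, rpFSH over control, of the 9 retinoid genes from edgeR on the counts (horizontal axis, dotted lines at -1 and 1). Bars are 95% intervals of the 8 members with a test, all of which cross 0, and the open circle is ENSSSCG00000016093, which was selected on this change and has no interval.

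Aldehyde oxidases are a further group of enzymes that can oxidise retinal. ENSSSCG00000016093 (chromosome 15, 104410687 to 104495722) is described in the deposited table as an aldehyde oxidase and is AOX2 in the RefSeq table. It had an FPKM of 0.198, 0.138, 0.152, 0.211 and 0.217 in the control pigs and of 0.0433, 0.0627, 0.123, 0.0960 and 0.0170 in the rpFSH pigs. All rpFSH pigs were below all control pigs, which is what it was selected on, and 83 of 15170 loci (0.547%) were so ordered. The summed oviduct-type markers were ordered in the same way, but of the single markers only MAL2 was. With the mean log2 (FPKM + 1) of that list the locus had rho = 0.733, but -0.0061 as deviations from the group means. Both are given with no test. The level of the locus was low throughout, with 47 to 77 counts per control pig and 6 to 38 per rpFSH pig, and lay above only 1.94% of the loci tested. Group means were 0.183 ± 0.0361 and 0.0684 ± 0.0420 (SD, n = 5 each), a log2 change of -1.32 in edgeR, given with no test. With control pigs 2 and 5 left out it was -1.35, from pigs that it was also selected on. On log2 (FPKM + 1) the difference was -0.15, since the added 1 outweighs so low a level. Its neighbour AOX1 (chromosome 15, 104157378 to 104238400) was far more abundant, at an FPKM of 3.65 ± 1.59 in control and 4.00 ± 1.36 in rpFSH pigs (SD, n = 5 each), with a log2 change of 0.20 (SE 0.31, edgeR adjusted p = 1.00). ENSSSCG00000040051, which is AOX4 in RefSeq and lies between them, had at most 9 counts. The loci are related copies, and reads that fit more than 1 of them may have been split.

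CYP26B1 degrades retinoic acid. Its locus (chromosome 3, 70572970 to 70593461) had an FPKM of 0.317, 0.143, 0.350, 0.343 and 0.391 in the control pigs and of 0.248, 0.302, 0.218, 0.271 and 0.421 in the rpFSH pigs. The groups overlapped over most of their range, with control pig 2 the lowest and rpFSH pig 5 the highest. The log2 change was -0.0066 (SE 0.32, 95% interval -0.72 to 0.70, edgeR adjusted p = 1.00). The related CYP26A1 and CYP26C1 had at most 16 and 11 counts in any pig and were under the filter.

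The retinoic acid binding proteins CRABP1 and CRABP2 were low and uneven. CRABP1 (chromosome 7, 47601991 to 47609624) had an FPKM of 0.143, 0.0702, 0.0338, 0.126 and 1.08 in the control pigs and of 0.139, 0.0850, 0.875, 0.614 and 0.0001 in the rpFSH pigs, the last from a count of 0. Pigs with over 100 counts (control pig 5, rpFSH pigs 3 and 4) and pigs with 27 or fewer were found in both groups. The log2 change was 0.35 (SE 1.20, 95% interval -2.31 to 3.02, edgeR adjusted p = 1.00). It was -0.37 without rpFSH pig 3, 1.92 without control pig 5 and 1.80 with control pigs 2 and 5 both left out, so single pigs moved it in either direction.

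CRABP2 (chromosome 4, 93388092 to 93394155) had an FPKM of 1.12, 1.03, 0.269, 0.131 and 1.28 in the control pigs and of 0.632, 0.262, 1.41, 0.138 and 0.278 in the rpFSH pigs. Values spread over about the same range in both groups, with 3 control pigs and 1 rpFSH pig above 1. Its log2 change was -0.39 (SE 0.74, 95% interval -2.02 to 1.25, edgeR adjusted p = 1.00). It was 0.21 with control pigs 2 and 5 both left out, the alternative added after the data were seen, but -1.13 without rpFSH pig 3 and -1.89 as the log2 ratio of the group medians.

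RBP4, which carries retinol in blood, and RARB, a retinoic acid receptor, varied less between pigs than CRABP1 and CRABP2. RBP4 (chromosome 14, 105036961 to 105044712) had an FPKM of 0.426, 0.159, 0.270, 0.268 and 0.700 in the control pigs and of 0.403, 0.273, 0.313, 0.350 and 0.196 in the rpFSH pigs, so that the control group held both the lowest and the highest pig. Its log2 change was -0.17 (SE 0.41, 95% interval -1.07 to 0.73, edgeR adjusted p = 1.00), and 0.20 without control pig 5. RARB (chromosome 13, 12336370 to 12507805) had an FPKM of 2.39, 2.26, 2.53, 3.62 and 3.49 in the control pigs and of 2.24, 2.65, 2.40, 2.99 and 2.77 in the rpFSH pigs. The groups overlapped, and RARB had the narrowest interval of the 8, with a log2 change of -0.06 (SE 0.17, 95% interval -0.42 to 0.31, edgeR adjusted p = 1.00). It was 0.041 without control pig 4, 0.027 without control pig 5 and 0.0042 without rpFSH pig 1. As a fold, rpFSH over control, the 95% interval ran from 0.745 to 1.24 for RARB, whereas it ran from 0.0660 to 1.22 for ALDH1A1 and from 0.202 to 8.11 for CRABP1.

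The members also differed in how steady they were over the 10 pigs. The coefficient of variation of FPKM was 138% for ALDH1A1 and 136% for ALDH1A3, against medians of 31.0% and 30.8% for the loci with a mean FPKM within 1.5-fold of theirs (3029 and 3080 loci). Of these loci, 97.6% and 97.7% varied less. The value of ALDH1A3, like its mean over the 10 pigs, rested largely on control pig 5. That pig had an FPKM of 7.79, against at most 2.91 in the others. CYP26B1 (27.8%) varied less than most loci of its level (median 61.7%, with 3.98% of 1332 loci lower), and RARB (17.9%) was near its own (24.5%). The other members lay between 41.6% for ALDH1A2 and 123% for CRABP1. In order of mean FPKM over the 10 pigs the members were ALDH1A2 (3.43), RARB (2.73), ALDH1A3 (1.68), ALDH1A1 (1.64), CRABP2 (0.654), RBP4 (0.336), CRABP1 (0.317), CYP26B1 (0.300) and ENSSSCG00000016093 (0.126). Neighbours in this order up to CYP26B1 differed by less than the SD of at least one of them over the pigs.

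Whether members rose and fell together from pig to pig was examined over their 36 pairs, on log2 (FPKM + 1). The pairs with ENSSSCG00000016093 are counted among them, but since its groups differ by selection no p is given for any of these. Pearson's r was above 0 in 31 pairs, but 0 pairs had an adjusted p under 0.05 by a two-sided permutation test of Pearson's r or of Spearman's rho. The highest r was that of ALDH1A2 with CRABP1 (r = 0.723, permutation p = 0.0126, adjusted over 36 pairs 0.415; rho = 0.455, permutation p = 0.191, adjusted 0.752), and r was 0.626 without control pigs 4 and 5. RBP4 and CRABP1 had the highest rho (0.806, permutation p = 0.00731, adjusted 0.263; r = 0.683, permutation p = 0.0250, adjusted 0.415), and r fell to 0.304 without control pigs 2 and 5. With the 2 pigs farthest from the median of the gene named first left out, r was above 0 in 18 of the 36 pairs. It was above 0 in 26 pairs, with 0 adjusted p under 0.05, when the pigs were chosen by the gene named second instead, an alternative added after the data were seen. ALDH1A3 and CYP26B1, a producer and a degrader of retinoic acid, had r = 0.267 over 10 pigs (permutation p = 0.451, adjusted 0.560) and rho = -0.0061 (permutation p = 1, adjusted 1). Without control pig 5 and rpFSH pig 5, the pigs farthest from the median of ALDH1A3, r was -0.903, but these were the highest pigs in both genes, so leaving them out takes away the points opposed to a negative r. Without control pig 2 and rpFSH pig 5, the pigs farthest from the median of CYP26B1, r was 0.275, so the sign depended on which gene the pigs were chosen by and no p is given.

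**Figure D3:**
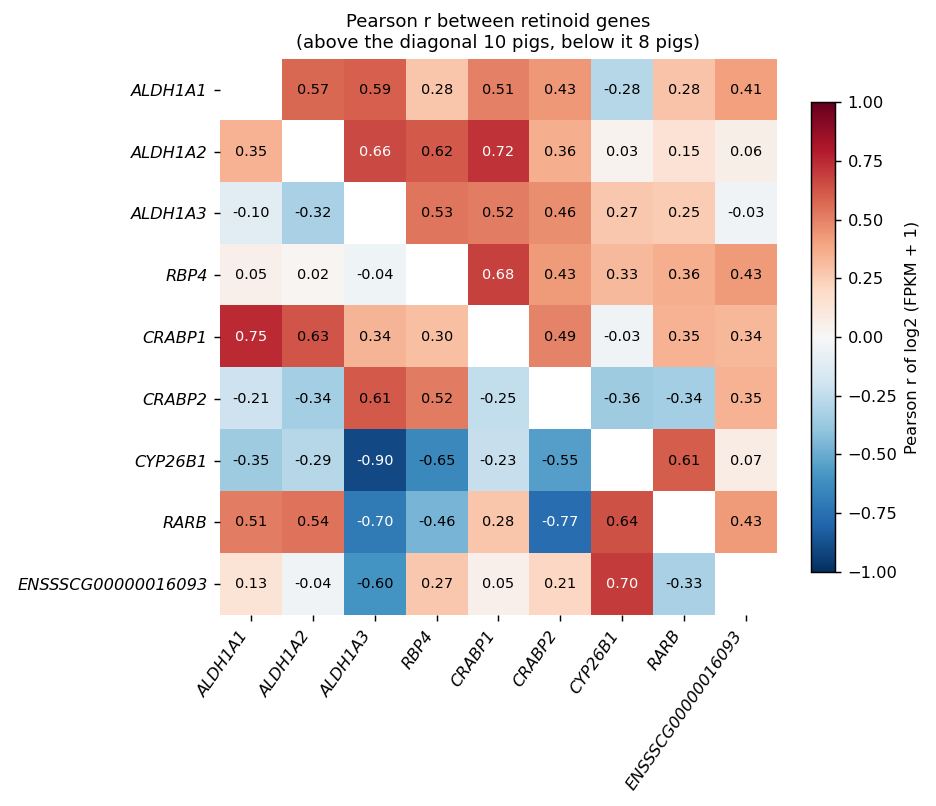
Pearson's r of log2 (FPKM + 1) between the 9 retinoid genes, over 10 pigs above the diagonal and over 8 pigs below it, where the 2 pigs farthest from the median of the gene that comes first in the list are left out (colour scale from -1 to 1). Most squares above the diagonal are positive, and ALDH1A3 with CYP26B1 goes from 0.27 to -0.90.

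ALDH1A1 was then set against the levels of 11 marker lists, as were the other members, which made 99 relations. The 11 relations of ENSSSCG00000016093 entered the adjustment over 99, but since its groups differ by selection no call is given for them. Of the other 88, over the 10 pigs, 0 had an adjusted p under 0.05 by either coefficient. ALDH1A1 and the oviduct-type markers (mean log2 (FPKM + 1) of the list) had r = 0.907 (permutation p = 0.0133, adjusted 0.236) and rho = 0.285 (permutation p = 0.429, adjusted 0.760), and without control pigs 2 and 5 r was -0.220. With the mesothelial markers r was 0.905 (permutation p = 0.00556, adjusted 0.236) and rho 0.636 (permutation p = 0.0555, adjusted 0.571), and r was 0.206 without the same pigs. Both relations thus rested on these 2 pigs. With the immune markers, CD68 and its shared locus included, r was 0.653 (permutation p = 0.0404, adjusted 0.267) and rho 0.733 (permutation p = 0.0201, adjusted 0.571), and r was 0.648 without the same pigs, so this r was nearly as high without them but did not pass the adjusted threshold. The lowest r of ALDH1A1 was that with the oocyte markers, at -0.911 (permutation p = 0.00242, adjusted 0.236; rho = -0.612, permutation p = 0.0667, adjusted 0.571), or -0.559 without control pigs 2 and 5. ALDH1A3 had r = 0.737 with the erythroid markers (permutation p = 0.0106, adjusted 0.236; rho = 0.697, permutation p = 0.0302, adjusted 0.571), or 0.368 without control pig 5 and rpFSH pig 5. With the oviduct-type markers it had r = 0.682 (permutation p = 0.0465) and rho = 0.103 (permutation p = 0.784). Its highest r was that with the mesothelial markers, at 0.789 (permutation p = 0.0133, adjusted 0.236), with rho = 0.564 (permutation p = 0.0965, adjusted 0.571). Without control pig 5 and rpFSH pig 5 this r was 0.621.

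Taken as deviations from the group means, 5 of these 88 relations had an adjusted p under 0.05 for Pearson's r, with no allowance for the means taken out. They were those of ALDH1A1 with the mesothelial (r = 0.888, permutation p = 0.00019, adjusted 0.00940; rho = 0.939, permutation p = 0.00016, adjusted 0.0158), oviduct-type (r = 0.908, permutation p = 0.00015, adjusted 0.00940; rho = 0.830, adjusted 0.112) and oocyte markers (r = -0.908, permutation p = 0.00047, adjusted 0.0155; rho = -0.842, adjusted 0.112). The other 2 were those of ALDH1A3 with the mesothelial (r = 0.868, permutation p = 0.00197, adjusted 0.0465; rho = 0.758, adjusted 0.190) and oviduct-type markers (r = 0.858, permutation p = 0.00235, adjusted 0.0465; rho = 0.867, adjusted 0.112). With the 2 farthest pigs left out and the group means taken again over the other 8, an alternative added after the data were seen, 0 of the 88 had an adjusted p under 0.05. Without control pigs 2 and 5, r of ALDH1A1 was then 0.0980 with the mesothelial, -0.0042 with the oviduct-type and -0.516 with the oocyte markers, so the first 2 of these relations rested on those pigs within the groups as well. Without control pig 5 and rpFSH pig 5, r of ALDH1A3 was 0.838 with the mesothelial and 0.832 with the oviduct-type markers (exact permutation p = 0.0144 and 0.0152, adjusted 0.215 for both), with control pig 2 still included.

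**Figure D4:**
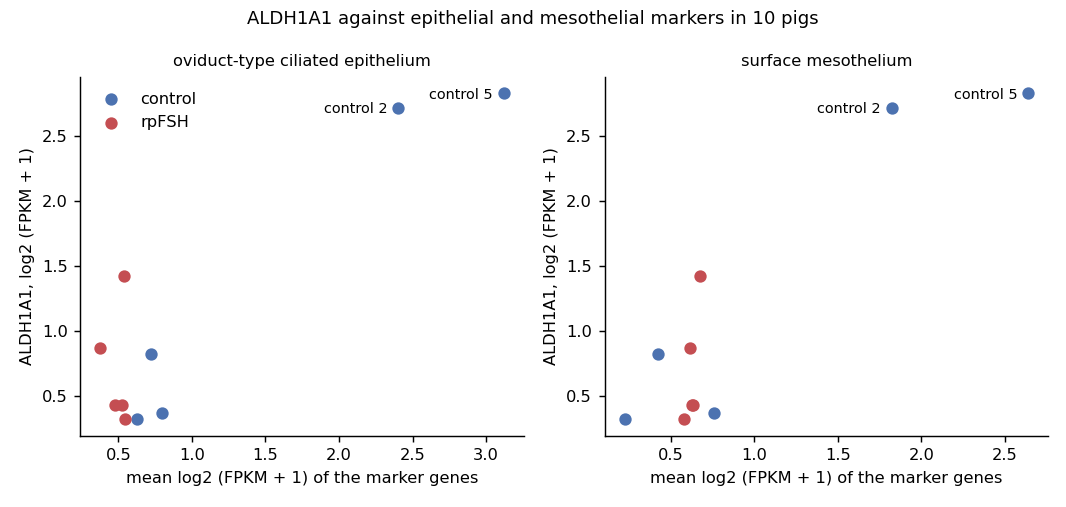
ALDH1A1 (vertical axis, log2 (FPKM + 1)) against the mean log2 (FPKM + 1) of 8 oviduct-type epithelial markers (left) and 6 mesothelial markers (right) in 5 control pigs (blue) and 5 rpFSH pigs (red). Control pigs 2 and 5 lie at the upper right of both panels, and the other 8 pigs lie together at the lower left, where r is -0.220 and 0.206.

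The other genes of retinoid metabolism were grouped by role in 8 lists with 51 genes, of which 50 were matched to a locus (ADH7 was not) and 39 passed the filter on mean FPKM. In edgeR 0 of the 39 had an adjusted p under 0.05, and by the limits of the study 2 were lower and 0 higher in the rpFSH treatment group, where 2.58% of all loci tested were lower. Of these 2, RBP7 passed the filter only through the control group, so the count is not read as a result. With control pigs 2 and 5 both left out, 2 were lower (RARRES1 and HSD17B6) and 1 higher (BCO1), where 0.787% of all loci were lower and 1.95% higher. The count of lower genes was 4 in DESeq2 (with LRP2 and HSD17B6), 3 without control pig 1 (with DHRS4), and 0 without rpFSH pig 5. Of all loci tested, 446 of 15170, 454 of 15158 and 312 of 15165 were lower in the same 3 settings. HSD17B6 also came within the limits without control pig 2, and LRP2 without control pig 3 or rpFSH pig 3. The loci of LRP2 and DHRS4 also carry ABCB11 and CARMIL3. The log2 change was below 0 in 21 genes and above 0 in 18, with a median of -0.04, but below 0 in 14 and above 0 in 25, with a median of 0.08, without those pigs.

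The 2 genes within the limits were RARRES1, a retinoid-responsive gene, and RBP7, a cellular retinol-binding protein. RBP7 passed the filter only through the control group (mean FPKM 0.606 in control and 0.0449 in rpFSH pigs), so its values are a description. RARRES1 had an FPKM of 59.4, 34.5, 446, 587 and 132 in the control pigs and of 38.7, 71.4, 106, 60.3 and 46.0 in the rpFSH pigs (log2 change -1.90, SE 0.73, edgeR adjusted p = 0.981). The groups overlapped, with control pigs 3 and 4 far above all others, and RARRES1 was no longer within the limits without control pig 3 (-1.55), control pig 4 (-1.32) or rpFSH pig 1 (-1.76), 4 (-1.85) or 5 (-1.80). RBP7 had 8, 123, 5, 23 and 0 counts in the control pigs and 4, 0, 0, 6 and 2 in the rpFSH pigs (log2 change -3.58, given with no test), so its change rested mainly on control pig 2 and on few counts. It was -1.79 without control pig 2, and it was outside the limits without that pig or rpFSH pig 2 (-3.28), 3 (-3.29) or 5 (-3.53).

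Among carriers and uptake genes, 7 of 9 were tested, and the most abundant was FABP5, which can carry retinoic acid, at 4.15 ± 2.91 FPKM in control and 4.75 ± 2.44 in rpFSH pigs (SD, n = 5 each). Of 4 genes of retinyl esters 3 were tested, led by LPL, which releases retinol from lipoprotein esters, with 4.55 ± 7.35 and 1.47 ± 0.726. The control mean of LPL was carried by control pig 2, with an FPKM of 17.7, and was 1.27 ± 0.128 (SD, n = 4) without it, when the log2 change went from -1.55 to 0.29. LRAT, which stores retinol as esters, had a mean FPKM of 0.0693 and was under the filter, with 27, 31, 19, 31 and 59 counts in the control pigs and 16, 4, 0, 0 and 4 in the rpFSH pigs. All rpFSH pigs were below all control pigs by FPKM (0.122 ± 0.0509 in control and 0.0166 ± 0.0225 in rpFSH pigs, SD, n = 5 each). This held for 1 of the 50 matched genes, and for 90 of 18204 loci (0.494%) with no filter. In the edgeR fit with no filter LRAT was within the limits of the study (log2 change -2.71, SE 1.01, edgeR adjusted p = 0.938), as were 2.88% of loci on the lower side, and it is named here after its values were seen. Of 16 genes that interconvert retinol and retinal 13 were tested, 10 below and 3 above 0, with a median log2 change of -0.21, but 6 below and 7 above, with a median of 0.02, without control pig 2. The most abundant was the retinal reductase RDH11, at 60.4 ± 95.4 and 46.8 ± 55.8 FPKM. These means too were carried by 1 pig each, and were 17.8 ± 7.50 without control pig 2 and 22.6 ± 15.8 without rpFSH pig 1 (SD, n = 4 each). The log2 change of RDH11 went from -0.33 to 1.45 without control pig 2, but to -1.34 without rpFSH pig 1. In other lists, below and above 0 were 3 and 4 carriers, 4 and 1 receptors and 1 and 4 cofactors, and of all loci tested 7837 and 7333. The receptors were 2 and 3 without rpFSH pig 1, without rpFSH pig 4, and with control pigs 2 and 5 both left out. Without rpFSH pig 4 the carriers were 4 and 3. Both carotenoid cleavage genes were tested, led by BCO2, at a locus that also carries TEX12, at 2.10 ± 0.560 and 1.50 ± 0.872 FPKM. AOX1, described above, was the only 1 of 4 further oxidation genes that passed the filter.

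Of the receptors other than RARB, RXRA, a partner of the retinoic acid receptors, was the most abundant, with an FPKM from 3.02 to 7.50 over the 10 pigs, at 5.35 ± 1.61 and 4.97 ± 1.43 FPKM (SD, n = 5 each, log2 change -0.03, SE 0.28), and the 5 receptors tested had log2 changes between -0.19 and 0.13. All 5 cofactors were tested, led by NCOA3, at 8.41 ± 0.570 and 7.76 ± 0.785 FPKM. Of 5 retinoid-responsive genes 3 were tested, with RARRES1 the most abundant, while STRA8, a meiosis gene, was under the filter. RARRES1 was below 0, but the other 2, TGM2 and RARRES2, were above 0, with log2 changes of 0.80 and 0.38.

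**Figure D5:**
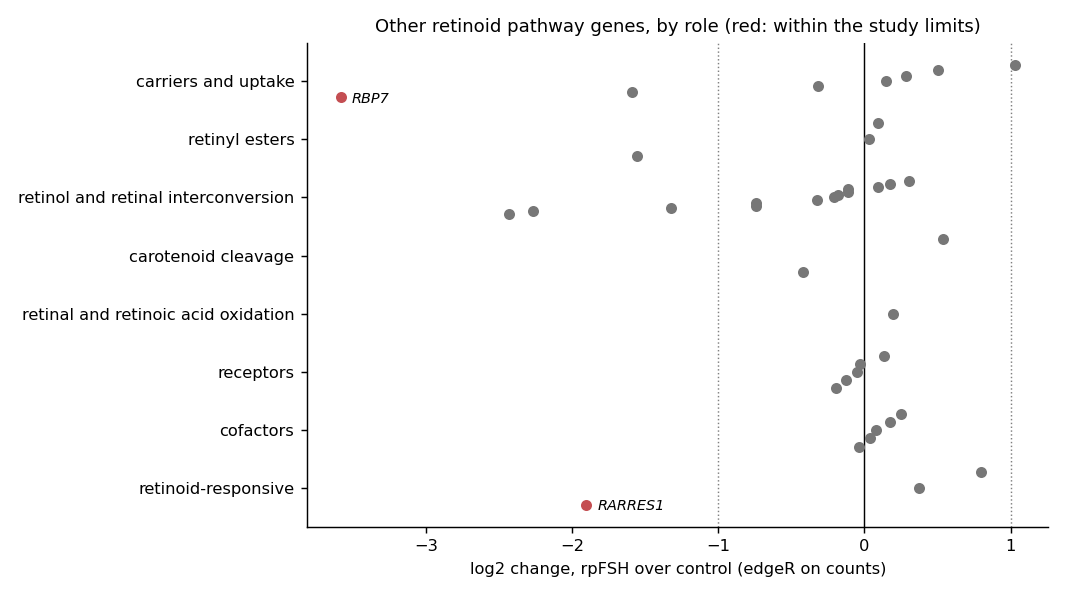
Log2 change, rpFSH over control, from edgeR on the counts, of the 39 other retinoid genes tested (1 point each), by role, with dotted lines at -1 and 1. RBP7 (-3.58) and RARRES1 (-1.90), in red, are the 2 within the limits of the study, and RBP7 passed the filter only through the control group.

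For each member, the 2 protein-coding loci (mean FPKM at least 1) whose log2 (FPKM + 1) had the highest Pearson's r with it over the 10 pigs were looked up among 11315 loci. As these are the highest of so many, they are given as a description with no test. ALDH1A1 was most like PPP1R3C (r = 0.975, rho = 0.770) and KLF5 (r = 0.973, rho = 0.891), and without control pigs 2 and 5 r was 0.796 and 0.916. ALDH1A3 was most like SAMD12 (r = 0.963, rho = 0.939) and DUSP3 (r = 0.956, rho = 0.927), with r = 0.898 and 0.838 without control pig 5 and rpFSH pig 5. ALDH1A2 was most like PLCL1 (r = 0.946, rho = 0.830) and NXN (r = 0.940, rho = 0.818). Without control pigs 4 and 5, r was 0.748 and 0.825 for ALDH1A2. Since the loci were picked for their r over all 10 pigs, a high r in 8 of the same pigs follows in part from the choice.

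CRABP1 was most like ROR2 (r = 0.955, rho = 0.818) and MAMDC2 (r = 0.927, rho = 0.770), and CRABP2 was most like FADD (r = 0.897, rho = 0.818) and ENSSSCG00000014161 (r = 0.854, rho = 0.842). RBP4 was most like a locus described as A-kinase anchoring protein 13 (r = 0.930, rho = 0.855) and FUNDC2 (r = 0.906, rho = 0.758). CYP26B1 was most like SEPT8 (r = 0.911, rho = 0.891) and TMEM39A (r = 0.907, rho = 0.964). RARB, the steadiest member, had its likest loci in one that carries RRN3 and NTAN1 (r = 0.945, rho = 0.952) and in OTUB2 (r = 0.935, rho = 0.927). ENSSSCG00000016093 was most like DNAJA4 (r = 0.933, rho = 0.964) and ENSSSCG00000031418 (r = 0.915, rho = 0.915). Without the 2 pigs farthest from the member's median, r for these loci lay between 0.683 and 0.934.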

How the data were processed

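Ovary RNA of 10 gilts was measured with 1 library per pig. According to the methods, the authors trimmed reads with Cutadapt, mapped them to Sscrofa11.1 and used StringTie and Ballgown for the deposited FPKM of each locus. The submitters' processing notes name Bowtie 0.12.2, HISAT2 2.0 and StringTie 1.3.0. The authors also deposited a whole-number count per locus and pig, and how it was made is not stated. Positions are those of the deposited table.

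Counts of protein-coding loci whose mean FPKM reached 0.1 were compared by edgeR 4.0.16 (quasi-likelihood, TMM), with DESeq2 1.42.0 and limma 3.58.1 (on log2 FPKM, pseudocount 1 or 0.1) as alternatives, in R 4.3.3. The methods of the study used Ballgown on FPKM. The SE was taken from the log2 change and its F value. Correlations used 100000 permutations (seed 1), or every order of 8 pigs, and single members were compared by exact permutation, in Python 3.11.15 with numpy 2.4.6, pandas 2.3.3, scipy 1.17.1 and matplotlib 3.10.9. The fits were tested on simulated data. Other alternatives were upper-quartile and relative log expression factors, no filter or a mean FPKM of at least 1, the replicate block, and each pig left out. Leaving out control pigs 2 and 5 together, and taking group means again once the 2 farthest pigs were left out, and choosing these by the gene named second, were added after seeing the data.

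Named genes are the 9 members, of the other retinoid genes the most abundant in each role and those within the limits of the study, the 2 loci most like each member, and of each marker list the most abundant gene and markers near 0. Other genes are named after their values were seen. Of 111 listed genes 105 were matched, by symbol or the RefSeq table. The members and lists were chosen with earlier results of these data known. Protein and promoter sequences were not used here. The values of 1 listed gene are not reported here.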

Additional observations from a re-analysis of the deposited data

Results flagged for a closer look

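Control pig 5 was far above the rest of its group in 2 members. Its ALDH1A3 FPKM of 7.79 was separated from the next control pig by a gap of 0.842 of the range of the group, and its CRABP1 FPKM of 1.08 by 0.895, both above Dixon's 95% limit for 5 samples. These were the only ones found among 18 groups of 5 pigs (9 members in both groups). For normal values in separate groups, chance gives about 1 in 20. Normality was not checked, and the groups reuse the same 10 pigs, so this rate need not hold here. The same pig had the highest oviduct-type, mesothelial, smooth muscle and erythroid marker sums of all 10 pigs, and the part of those cells in the values was not tested. ALDH1A1, with a pair of high control pigs, did not pass the same limit.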

How the results depend on the processing

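The number of loci within the limits of the study, 473 in edgeR with TMM, was 146 with a mean FPKM of at least 1, where fewer loci were tested, 17 and 188 in limma with a pseudocount of 1 and 0.1, and 365 to 564 with each pig left out. Of these loci 81 were higher and 392 lower in edgeR with TMM, against 290 and 117 without control pigs 2 and 5. The number with an adjusted p under 0.05, 0 in edgeR, was 86 in DESeq2 and 0 to 1 with each pig left out. Among the 8 members 1, ALDH1A1, was within the limits in DESeq2, and 0 to 1 with each pig left out. Without control pigs 2 and 5 it was 1, ALDH1A3. Among the 39 other retinoid genes 2, with RBP7 included, were within the limits, against 4 in DESeq2, 1 with a mean FPKM of at least 1, 0 in limma with either pseudocount, and 0 to 3 with each pig left out. The cause was not tested.

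Replicate numbers are shared by the groups, but the methods describe no pairing. Deviations of same-numbered pigs had r between -0.413 and 0.111 across loci, over 0.1 in 1 of 5 pairs, and 0 of 10 pigs were most like their own number. The replicate block gave 194 loci and 0 of the other retinoid genes within the limits, 0 loci with an adjusted p under 0.05, and log2 changes of 0.71 for ALDH1A3 and 0.024 for CYP26B1.

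Of 164 log2 changes of the 8 members with a test under other settings, 26 had the opposite sign, in 8 members, none of them past the adjusted threshold in any setting. They were uneven, with 8 for CYP26B1, 6 for ALDH1A3, 4 for RARB, 3 for RBP4 and 2 for ALDH1A2. ALDH1A1, CRABP1 and CRABP2 had 1 each. With each pig left out, the change ran from -2.45 to -1.25 for ALDH1A1, -0.10 to 0.49 for ALDH1A2, -0.97 to 1.29 for ALDH1A3 and -0.36 to 0.20 for RBP4. It ran from -0.37 to 1.92 for CRABP1, -1.13 to -0.12 for CRABP2, -0.19 to 0.093 for CYP26B1 and -0.13 to 0.041 for RARB. ALDH1A3 was at 0.044 and 0.44 in limma with a pseudocount of 1 and 0.1. From group medians, it was 1.16 for ALDH1A3, 0.21 for RBP4 and 0.063 for RARB. Without control pigs 2 and 5 it was 0.74 for ALDH1A1, 2.17 for ALDH1A3, 0.0075 for RBP4 and 0.21 for CRABP2.

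Of 36 member pairs, 1 had an adjusted p under 0.05 for Pearson's r with the 2 farthest pigs left out, against 0 in the other settings. This held for levels and for deviations, whether from the group means of all 10 pigs or from means taken again. All of these settings leave out the same pigs, control pig 5 and rpFSH pig 5, so they are not separate checks. That pair, ALDH1A3 with CYP26B1, depends on the gene by which pigs were left out, so no call is taken from it. With the pigs chosen by the gene named second, the count was 0. For Spearman's rho it was 0 of the 28 pairs without ENSSSCG00000016093, for levels and for deviations. Of 88 relations with markers, those of the selected locus left aside, it was 5 for Pearson's r and 1 for Spearman's rho as deviations from the means of all 10 pigs, against 0 in the other settings run. Counts were lowest in ENSSSCG00000016093 (6 to 77), CRABP2 (12 to 111), RBP4 (30 to 133) and CRABP1 (0 to 205). The SE of the log2 change was 0.74 for CRABP2, 0.41 for RBP4 and 1.20 for CRABP1, and the part of depth in it was not tested.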

Other observations

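RDH11 and RDH12, which reduce retinal, were highest in the pigs with high luteal markers. The FPKM of RDH11 was 231 in control pig 2, 144 in rpFSH pig 1 and 42.4 in rpFSH pig 4, and between 5.96 and 27.4 in the other pigs. For RDH12 it was 52.4, 7.10 and 2.08 in those pigs and at most 0.697 in the others. The pigs came from both groups, and these genes were picked out after their values were seen.

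RARB was overlapped by 4 unannotated loci, 2 on the other strand, 1 on the same strand and 1 with no strand. The locus on the same strand (chromosome 13, from 12403023 to 12440498) was at 1.35 ± 0.579 FPKM in control and 1.22 ± 0.282 in rpFSH pigs (SD, n = 5 each). How reads were divided between these loci and RARB is not stated. The locus opposite to ALDH1A2 had a count of 0 in all 10 pigs.

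CRABP1 and ENSSSCG00000016093, as deviations from the group means of the 10 pigs, had rho = 0.915 and r = 0.791, and r = 0.756 without control pig 5 and rpFSH pig 3 once the means were taken again. As levels, r was 0.335 and rho 0.394, and r was 0.0486 without the same pigs. The pair was picked out after its values were seen and holds the locus selected on its group difference, so these values are a description with no test.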
